A study of Homo sapiens with 9 samples.

Results

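Broad hybrid domains are long stretches of the genome under DNA:RNA hybrid signal in every untreated library of a DRIP-seq experiment on SH-SY5Y cells, an established human neuroblastoma line. They were chosen by merging the touching or overlapping peaks of the 6 untreated libraries on chromosomes 1 to 22 and X. Merged regions at least 10000 bp wide with at least 1 bp of peak in each of the 6 libraries were kept. This left 2918 domains among 99429 merged regions, or 2.93% of the regions. They spanned 53.7 Mb, or 29.0% of the length of all regions. Their width and their presence in the 6 untreated libraries were therefore set by the choice and are given as description. The peaks of the 2 RNase H libraries played no part in it.

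The tested cells carried a stably integrated lentiviral hairpin against TDP-43 (shTDP43). This nucleic acid-binding protein is known to be lost from the nucleus of affected neurons in amyotrophic lateral sclerosis (ALS). The controls carried a negative control hairpin (shNC). Cells transduced in this way were selected in puromycin at 2 µg/mL and then kept in it at 1 µg/mL, per the labels' protocols. The DNA was digested with 5 restriction enzymes, and hybrids were pulled down with the antibody S9.6. Each genotype gave 3 untreated libraries and 1 library made from nucleic acids treated with RNase H for 6 h. The labels do not tie the replicates to separately transduced lines, so p-values reflect library-to-library spread alone, which may be technical. The labels name no single-cell clone, and the level of TDP-43 left in the cells cannot be read from peaks.

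An R-loop forms when a transcript pairs again with its DNA template and leaves the other DNA strand single. RNase H cuts the RNA of such hybrids. R-loops are known at gene starts with CpG islands, where the new RNA is often rich in G, and at gene ends, where they help transcription to stop. DRIP-seq reads whole restriction fragments, so a short hybrid can mark a longer stretch of DNA.

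Promoter sequences that RefSeq lists for 8 genes starting in a domain are shown because these domains carry the main patterns. PFKL, PHOX2A and DMPK lay in domains covered without a break by every untreated library. CDT1 and TTYH3 lay in domains among the most covered after RNase H. TUBB4B lay in the domain with the most gene starts, JAKMIP1 in the narrowest domain, and TFPT is a usual control locus of the assay. The build is GRCh38.p14, whose chromosome coordinates are those of hg38. The windows were chr21:44299803-44300102 for PFKL, chr16:88803539-88803838 for CDT1, chr7:2631736-2632035 for TTYH3 and chr9:137241037-137241336 for TUBB4B, all on the plus strand. They were chr11:72244127-72244426 for PHOX2A, chr19:45782441-45782740 for DMPK, chr4:6194570-6194869 for JAKMIP1 and chr19:54115608-54115907 for TFPT, all on the minus strand. Each runs 5′ to 3′ on the gene's strand with the start at base 251 of 300. Capitals mark runs of at least 3 G, the letters GGG and any G that follow.
PFKL: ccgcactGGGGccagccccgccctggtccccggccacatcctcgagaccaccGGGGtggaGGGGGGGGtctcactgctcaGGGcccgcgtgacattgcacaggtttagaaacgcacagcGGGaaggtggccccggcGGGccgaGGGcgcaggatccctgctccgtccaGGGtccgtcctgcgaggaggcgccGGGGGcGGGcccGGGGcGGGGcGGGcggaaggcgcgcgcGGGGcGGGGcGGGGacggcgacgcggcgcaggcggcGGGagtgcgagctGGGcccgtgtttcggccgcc
PHOX2A: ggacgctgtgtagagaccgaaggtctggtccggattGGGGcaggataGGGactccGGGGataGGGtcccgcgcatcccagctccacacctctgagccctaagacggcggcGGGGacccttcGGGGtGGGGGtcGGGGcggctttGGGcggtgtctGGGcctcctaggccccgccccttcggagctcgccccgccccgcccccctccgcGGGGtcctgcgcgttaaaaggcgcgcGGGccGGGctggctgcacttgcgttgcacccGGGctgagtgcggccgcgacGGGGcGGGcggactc
DMPK: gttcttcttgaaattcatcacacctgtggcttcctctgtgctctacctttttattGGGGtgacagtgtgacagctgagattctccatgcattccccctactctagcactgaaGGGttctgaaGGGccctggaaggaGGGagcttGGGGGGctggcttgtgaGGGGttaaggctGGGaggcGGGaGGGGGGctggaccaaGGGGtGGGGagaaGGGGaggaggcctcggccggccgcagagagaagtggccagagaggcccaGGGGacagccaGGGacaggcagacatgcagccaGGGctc
CDT1: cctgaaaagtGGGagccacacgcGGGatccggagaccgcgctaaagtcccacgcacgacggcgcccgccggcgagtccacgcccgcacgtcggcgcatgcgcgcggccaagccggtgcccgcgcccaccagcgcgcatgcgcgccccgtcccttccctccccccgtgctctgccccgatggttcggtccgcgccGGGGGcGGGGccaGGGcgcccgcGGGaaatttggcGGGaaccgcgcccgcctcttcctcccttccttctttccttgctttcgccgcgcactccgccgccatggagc
TTYH3: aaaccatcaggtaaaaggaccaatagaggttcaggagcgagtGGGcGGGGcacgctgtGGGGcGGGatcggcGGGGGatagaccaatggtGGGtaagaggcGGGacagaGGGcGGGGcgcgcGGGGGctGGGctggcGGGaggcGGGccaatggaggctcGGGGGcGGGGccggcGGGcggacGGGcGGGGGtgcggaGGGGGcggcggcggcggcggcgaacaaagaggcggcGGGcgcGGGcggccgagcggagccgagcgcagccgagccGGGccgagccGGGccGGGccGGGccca
TUBB4B: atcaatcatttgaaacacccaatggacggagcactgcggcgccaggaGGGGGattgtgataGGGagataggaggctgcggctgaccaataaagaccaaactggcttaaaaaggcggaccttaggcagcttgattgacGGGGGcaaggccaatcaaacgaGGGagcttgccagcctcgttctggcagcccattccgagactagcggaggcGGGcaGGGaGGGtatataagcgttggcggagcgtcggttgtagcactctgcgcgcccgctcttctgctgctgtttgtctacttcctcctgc
JAKMIP1: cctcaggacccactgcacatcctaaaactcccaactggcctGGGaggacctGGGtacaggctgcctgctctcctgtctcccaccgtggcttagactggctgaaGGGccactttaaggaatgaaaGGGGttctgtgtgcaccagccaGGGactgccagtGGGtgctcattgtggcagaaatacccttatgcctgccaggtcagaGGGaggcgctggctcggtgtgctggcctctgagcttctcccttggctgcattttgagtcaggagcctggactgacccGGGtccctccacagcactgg
TFPT: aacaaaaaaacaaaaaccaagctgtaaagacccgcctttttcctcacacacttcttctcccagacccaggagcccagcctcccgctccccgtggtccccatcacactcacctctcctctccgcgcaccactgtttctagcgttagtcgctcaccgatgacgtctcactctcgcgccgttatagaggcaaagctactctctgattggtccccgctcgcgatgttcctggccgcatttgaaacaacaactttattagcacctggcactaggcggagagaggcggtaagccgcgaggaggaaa

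TTYH3 had 25 such runs of G, PFKL 18, PHOX2A 16, DMPK 15, JAKMIP1 8, and CDT1 and TUBB4B 7 each. TFPT had 0 on its own strand but 8 runs of C, which are runs of G on the template strand. Of the 1880 coding gene starts that lay in a domain, 90.3% had at least 4 runs of GGG or longer in the window. The share was 86.9% for the 5496 starts in narrower shared regions, 69.3% for the 7194 starts outside every merged region, and 79.2% for all 15812 genes with a listed start. Counted as CCC, the same motif on the other strand, at least 4 runs stood in 89.8% of the windows in domains and 79.2% of all windows. The median GC content was 67.0% in domains, 67.0% in narrower shared regions and 56.2% outside the regions. The median ratio of observed to expected CpG was 0.833 in domains, 0.870 in narrower shared regions and 0.441 outside. The promoters of the broad domains thus differed from those outside the regions in these letters but lay close to those of narrower shared regions. After the start, G exceeded C in 61.7% of promoters in domains, 62.8% in narrower shared regions and 53.0% outside. A recognition site of the 5 enzymes used to cut the DNA (TGTACA of BsrGI, GAATTC of EcoRI, AAGCTT of HindIII, AATATT of SspI or TCTAGA of XbaI, each the same on both strands) stood in 9.10% of promoters in domains. It stood in 10.5% of those in narrower shared regions and 17.8% of all promoters. These counts are matches of letters and not measured structures.

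The peak lists were of unequal depth. The background pileup solved from each list, a measure of relative depth, was 1.05, 1.68 and 1.94 in shTDP43 replicates 1 to 3, against 2.01, 1.93 and 1.62 in shNC replicates 1 to 3. It was 0.991 in the treated shTDP43 library and 0.936 in the treated shNC library. Replicate 1 of shTDP43 was the shallowest untreated library and stood apart. Domains held 6 of 9 adrenergic neuroblastoma markers. The summed coverage of all 9 spans with 1 kb on each side was 101.4 to 104.1 kb in shTDP43 and 102.1 to 104.7 kb in shNC libraries. They held 1 of 8 mesenchymal markers. Their summed coverage was 32.2, 34.3 and 36.0 kb in shTDP43 and 37.2, 37.1 and 37.4 kb in shNC libraries, which do not overlap, and most of it lay on FOSL1, FOSL2, TWIST1 and VIM. The part of this cell state in the results was not tested. The domains held 0 of 9 markers of blood, liver, pancreas and muscle, whose summed coverage was at most 0.711 kb in shTDP43 and 2.34 kb in shNC libraries. PTPRC, CD3E, ALB, APOB and INS were at 0 in all 6.

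The domains had a median width of 15247.5 bp, with 854 at least 20 kb and 39 at least 50 kb wide. Only 3 further regions in the whole set reached 10 kb without a peak in every library, so almost every region of this width was shared. Just inside the limit lay the domains in JAKMIP1, PPP2R2C and GFRA2, at 10000, 10002 and 10002 bp. Just outside lay shared regions at SPRED2, MVP and RIMBP2, at 9996, 9992 and 9991 bp.

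The widest domain lay over ZMIZ1, which encodes a transcriptional coactivator, and ran for 175559 bp at chr10:79060693-79236251. Peaks covered 146.8, 164.7 and 170.6 kb of it in shTDP43 replicates 1 to 3, against 173.3, 171.9 and 170.8 kb in shNC replicates 1 to 3. All 3 shTDP43 libraries were below all 3 shNC libraries, most of all the shallow replicate 1, and the difference did not pass the test (log2 0.09 ± 0.21 SE scaled and −0.10 ± 0.06 SE unscaled, limma, adjusted p = 0.849 and 0.752). The third widest domain, of 84121 bp, lay beside it over the rest of the same gene, and together they held 247273 of the 247554 bp of ZMIZ1. The second widest, of 94238 bp on chromosome 16, held 13 coding genes, among them STUB1, a ubiquitin ligase of damaged proteins. It was covered over 92.2, 93.6 and 94.0 kb in shTDP43, against 94.2, 93.7 and 93.7 kb in shNC, so the genotypes overlapped.

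The other domains of the 10 widest also included long single genes and tight gene clusters. Single genes were CACNA2D2, an auxiliary subunit of calcium channels, and GSE1. CACNA2D2 was the most uneven of the 10, with 41.2, 55.3 and 62.5 kb of 70.4 kb under peaks in shTDP43, against 64.7, 61.2 and 60.4 kb in shNC. GSE1 had 57.4, 65.3 and 66.8 kb of 68.0 kb in shTDP43, against 65.4, 65.6 and 65.9 kb in shNC. Clusters lay over RAI1, SREBF1 (a regulator of lipid synthesis) and TOM1L2, over NAA40 to MACROD1, over CD4 to SPSB2 with the glycolytic gene TPI1, over DGCR8 (microRNA processing) to CCDC188, and over SAFB to LONP1 with the ribosomal gene RPL36. In these 5 clusters the 3 shNC libraries and shTDP43 replicates 2 and 3 stayed within a few kb of each other, and shTDP43 replicate 1 was the lowest in each.

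**Figure D1:**
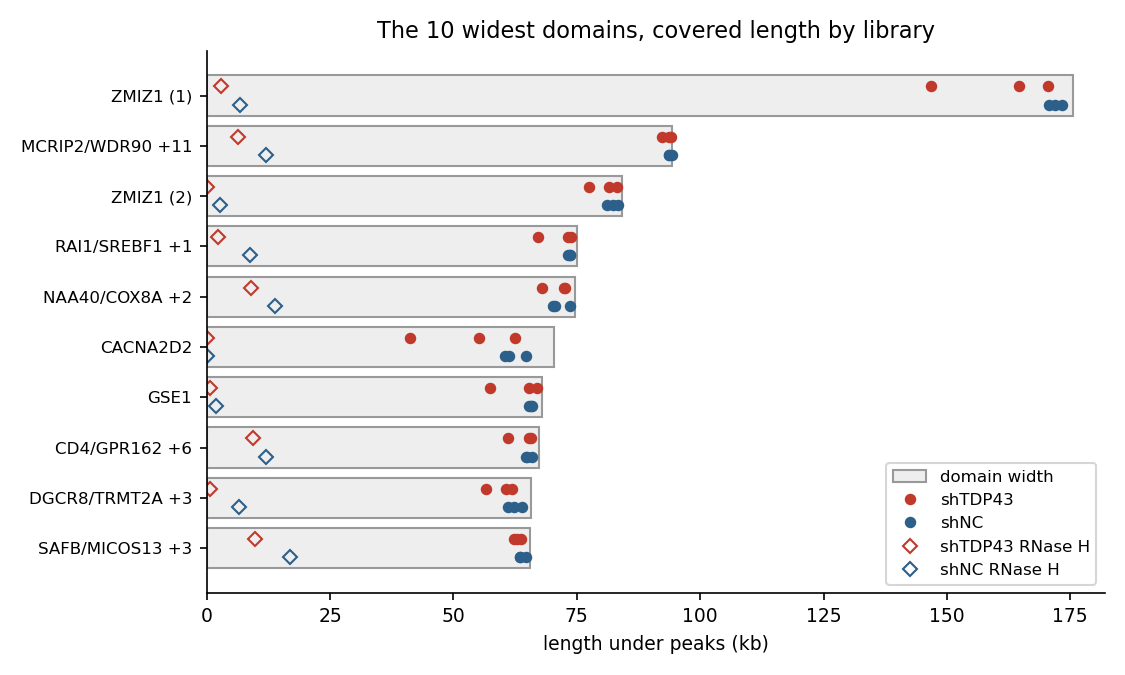
Length under peaks in kb (x axis) for the 10 widest domains (rows), with 1 filled circle per untreated library, an open diamond per RNase H library and a grey bar for the domain width. The lowest filled circle in each of the 10 rows is an shTDP43 library, and treated libraries cover at most 16.9 kb of any of these domains.

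Most domains held a boundary of a coding gene. A start or end of a coding gene span lay in 2180 domains, or 74.7% (95% Wilson interval 73.1 to 76.3), against 6989 of 21103 narrower shared regions, or 33.1% (32.5 to 33.8). Gene ends, here and below, are the starts and ends of gene spans alike. A wider region can hold more of them, so the shares describe the domains and do not set width aside. Per length, listed coding starts were fewer in domains, at 35.0 per Mb against 70.5 per Mb in narrower shared regions. In 812 domains (27.8%) at least 3 gene ends were held, and in 1368 (46.9%) 1 or 2. A further 652 (22.3%) lay wholly inside 1 or more genes, and 86 (2.95%) held no coding gene. More than 1 coding gene was held by 47.3% of domains, against 9.35% of narrower shared regions. Chromosomes 22 and 19, both rich in genes, had the most domains for their genes, at 30.4 and 29.3 per 100 coding genes. Chromosomes 18, 13 and X had the fewest, at 2.96, 3.25 and 4.25.

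Domains held at least 1 bp of 4279 of 19974 coding genes (21.4%), and 1446 of these lay wholly inside a domain. Short genes were held more often than long ones: 24.7% of genes under 10 kb, 29.0% of those of 10 to 20 kb, and 8.60% of those over 200 kb. SLIT3, an axon guidance ligand, was touched by 7 domains, and MSI2, an RNA-binding protein, and ALK, the receptor kinase mutated in neuroblastoma, by 6 each. MicroRNA genes were also held: 295 of 1911 (15.4%) lay in 240 domains, against 9.84% in narrower shared regions. The domain with the most, chosen after its values were seen, lay over RTL1 on chromosome 14 with 7 microRNA genes, among them MIR127 and MIR433.

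In the 803 domains with 1 listed coding start, the domain reached further downstream than upstream. The median reach was 11286 bp into the gene's direction and 3231 bp before the start, and the downstream side was the longer in 597 (74.3%). In narrower shared regions with 1 start that share was also 74.3%. Peak coverage was highest close to the start, but these starts were chosen for lying in a domain, which makes coverage high there. At the start itself 83.8, 94.4 and 94.3% of these genes were under a peak in shTDP43 replicates 1 to 3, against 97.9, 96.0 and 94.0% in shNC. At 5000 bp downstream the shares were 72.6, 85.3 and 86.2% in shTDP43 and 88.0, 85.8 and 83.3% in shNC. At 5000 bp upstream they were 36.9, 45.2 and 46.3% in shTDP43 and 49.2, 45.5 and 44.5% in shNC. Only shTDP43 replicate 1 lay below the other 5 libraries throughout, and replicates 2 and 3 of shTDP43 lay among the shNC libraries or close to them. Within domains the contrast was smaller. Of all 1880 starts in domains, 87.4, 95.7 and 96.0% lay under a peak in shTDP43, where 79.7, 91.9 and 93.2% of domain length did. In shNC the shares were 98.3, 97.2 and 95.4% of starts and 95.4, 92.1 and 91.4% of domain length.

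**Figure D2:**
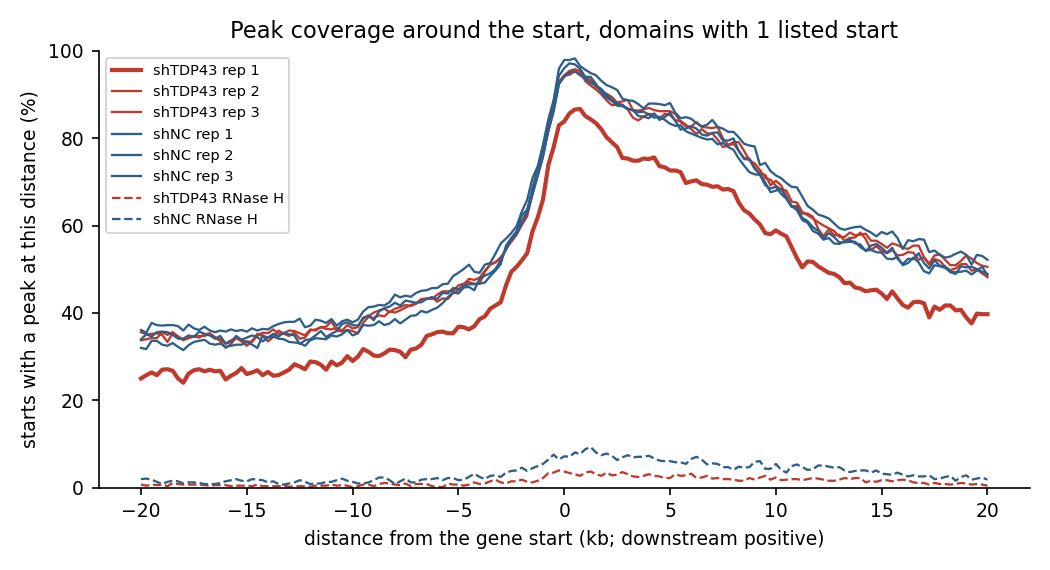
Share of 803 listed starts with a peak at each distance (y axis, percent) against distance from the start in kb along the gene's direction (x axis), with 1 line per library and any peak counted, inside the domain or not. Coverage climbs within a few kb before the start, is highest at 250 to 750 bp after it in every untreated library and falls slowly downstream, and the RNase H lines (dashed) stay under 10%. The starts were chosen for lying in a domain, so coverage near them is high by choice.

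The lists of genes chosen for this cell type differed in how many members the domains held, against 21.4% of all coding genes. Members named beyond the 4 in the widest domains of a list were chosen after their values were seen. Adrenergic identity genes were held at 10 of 21, among them TBX2, GATA3, GATA2, HAND2 and PHOX2A, transcription factors of the noradrenergic lineage, DBH, which makes noradrenaline, and CHGA, a protein of its secretory granules. TH, from the same lineage, was not. Of mesenchymal genes 1 of 13 was held (TWIST1), and of other lineages 0 of 13. Ribosomal protein genes, which are short and highly transcribed, were held at 40 of 81. Their median length was 5015 bp, and 24.7% of all genes under 10 kb were held. Loci used as DRIP controls were held at 8 of 12, among them TFPT, EGR1, ACTB and CALM3. Axon guidance genes were held at 23 of 67, with PLXNA1 and PLXNB1, semaphorin receptors, wholly inside 1 domain each. Potassium channel genes were held at 19 of 95.

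HOX genes were held at 6 of 39, all of them HOXD genes (HOXD3, HOXD4 and HOXD8 to HOXD11) in 3 domains. Other homeobox genes were held at 11 of 84 and chromosome 19 zinc finger genes at 21 of 240, although chromosome 19 had the most domains. Histone genes were held at 13 of 69. The 22 protocadherin genes held of 53 were gamma genes whose spans overlap, and all shared 8931 bp of a single domain. Of genes over 200 kb, 120 of 1396 were held. Splicing factors were held at 15 of 41, R-loop factors at 10 of 28 and ALS genes at 10 of 31. Genes with known TDP-43 cryptic exons, which are spliced in when the protein is lost, were held at 19 of 30.

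Within a domain the untreated libraries did not cover the same bases. The stretch under peaks in all 6 libraries, called the core here, was 40.2 Mb, or 74.95% of domain length, and its median share of a domain was 76.2%. It was at least 90% of 486 domains and under 50% of 406. The core share was 62.7% at the median in domains inside genes and 83.8% in those with at least 3 gene ends. In 30 domains every base was covered in all 6 libraries and the edges of the domain fell on the same bases. The widest of these lay over AIRE, PFKL and CFAP410, at chr21:44298489-44340429, and was 41941 bp long in each of the 3 shTDP43 and each of the 3 shNC libraries. The next lay over MEIOSIN, SIX5, DMPK and DMWD (35050 bp), where DMPK carries the repeat expanded in myotonic dystrophy. PHOX2A lay in another, of 24834 bp, with FOLR2 and INPPL1. Over all domains 1582 of 5836 edges (27.1%) fell on the same base in all 6 libraries, against 27.0% of the edges of narrower shared regions. Whether these edges are restriction sites was not tested.

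Fragmentation into peaks followed depth across the libraries. A domain held on average 4.06, 2.63 and 2.398 peaks in shTDP43 replicates 1 to 3, against 2.04, 2.54 and 2.78 in shNC replicates 1 to 3. Ordered by peaks per domain, the 6 libraries stood in exactly the reverse of their order by background pileup, whose part in the genotype values was not tested. The mean was 3.03 ± 0.90 in shTDP43 and 2.46 ± 0.38 in shNC (SD, n = 3 each), and the difference of 0.574 did not pass a 2-sided exact permutation test (p = 0.5, and 0.5 adjusted over 3 measures; 3 against 3 cannot go below 0.1). Without shTDP43 replicate 1 the difference was 0.057 (exact permutation p = 0.9). A single peak spanned the covered part of 328, 843 and 977 domains in shTDP43, against 1256, 870 and 766 in shNC. At least 5 peaks lay in 1046, 351 and 269 domains in shTDP43, against 129, 322 and 438 in shNC. Only 157 domains were 1 peak in every untreated library. The most broken on average were the ZMIZ1 domain, with 39, 17 and 10 peaks in shTDP43 and 5, 9 and 12 in shNC, and the CACNA2D2 domain, with 22, 21 and 13 peaks in shTDP43 and 8, 10 and 17 in shNC.

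**Figure D3:**
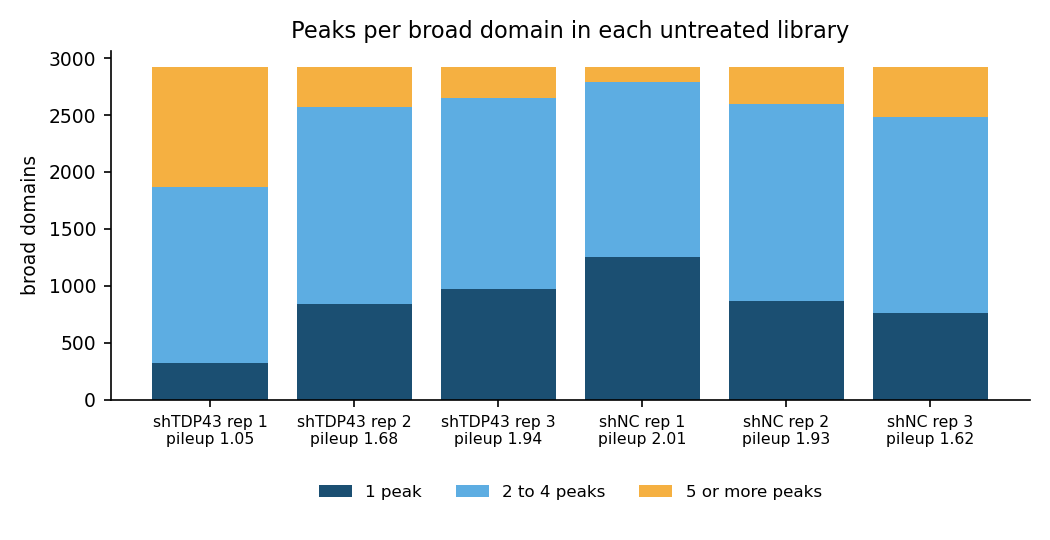
Number of broad domains (y axis) with 1, with 2 to 4 and with 5 or more peaks in each untreated library, with shTDP43 on the left and shNC on the right and the background pileup under each name. The shallowest library, shTDP43 replicate 1, has the fewest domains under 1 peak (328) and the deepest, shNC replicate 1, the most (1256).

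Peaks covered 42.7, 49.3 and 49.99 Mb of the domains in shTDP43 and 51.2, 49.4 and 49.1 Mb in shNC. The groups overlapped, and the means of 47.3 ± 4.00 Mb in shTDP43 and 49.9 ± 1.13 Mb in shNC (SD, n = 3 each) differed by −2.54 Mb (exact permutation p = 0.5, adjusted 0.5). The domains took 46.7, 38.4 and 38.2% of all covered length in shTDP43 and 36.1, 38.1 and 39.1% in shNC. These shares averaged 41.1 ± 4.84% in shTDP43 and 37.7 ± 1.56% in shNC (SD, n = 3 each; exact permutation p = 0.4, adjusted 0.5). For both measures the shallow shTDP43 replicate 1 lay farthest from the other 5 libraries. Without it the differences were −0.24 Mb (exact permutation p = 0.9) and 0.55 percentage points (p = 0.8 in the same exact test).

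For single domains the covered length was scaled to the library totals and tested with limma over 31639 merged regions with a mean of at least 500 bp. All 2918 domains were among them. Lower in shTDP43 at an adjusted p under 0.05 were 2 domains, or 0.0685%, where 0.0126% of all tested regions were. Higher were 0 domains, where 0.0% of all regions were. At an unadjusted p under 0.05, 80 domains were lower (2.74%, against 6.0% of all regions) and 104 higher (3.56%, against 2.53%). The scaling bears on these splits. With scaling, the median log2 difference was 0.14 over domains and 0.02 over all tested regions. Without scaling it was −0.06 over domains and −0.17 over all regions, and limma then called 1 domain lower, where 0.186% of regions were, and 0 higher, where 0.019% were. At an unadjusted p under 0.05 the unscaled fit had 134 domains lower (4.59%, against 6.86% of regions) and 13 higher (0.446%, against 0.796%).

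The lower domain with the smallest p lay at chr16:89032875-89044882 and held no coding gene. Its 12008 bp were covered over 1609, 2702 and 2174 bp in shTDP43 replicates 1 to 3, against 12008, 10690 and 9127 bp in shNC. The groups lay far apart, with a log2 difference of −2.08 ± 0.13 (SE, limma, adjusted p = 0.0112). The other lay inside AHNAK, which encodes a giant scaffold protein, at chr11:62524142-62534318. It had 677, 378 and 885 bp in shTDP43, against 9444, 7668 and 9106 bp in shNC (log2 −3.44 ± 0.31 SE, limma, adjusted p = 0.0455). No base of it was under a peak in all 6 libraries. Both domains drew their width largely from shNC peaks, so the rule that chose them used the values compared. The calls are therefore not independent of that choice. Neither domain had a peak after RNase H. Most domains of such width had none: 13.3% were hit in shTDP43 and 27.9% in shNC at 10 to 12 kb. At 12 to 20 kb, 21.3% were hit in shTDP43 and 42.3% in shNC. Both calls were lost when any 1 shNC library was left out, although the log2 differences stayed at −2.03 to −2.14 on chromosome 16 and −3.38 to −3.52 at AHNAK. The AHNAK call was also lost without shTDP43 replicate 3 (limma, adjusted p = 0.0547). Over the alternatives tried the adjusted p ranged up to 0.204 on chromosome 16 and 0.383 at AHNAK.

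Several further domains did not pass the test, and those named here were chosen after their values were seen. In NOTCH1, the receptor of a cell-to-cell signalling pathway, a domain of 21221 bp at chr9:136491657-136512877 held 422, 5194 and 4472 bp in 1, 7 and 9 peaks in shTDP43 replicates 1 to 3. In shNC it lay under 1 peak of 21082, 21091 and 21163 bp. The groups did not overlap, but the scaled difference of log2 −3.02 ± 0.69 (SE) missed the threshold (limma, adjusted p = 0.290). KRT80, a keratin, had 3361, 6240 and 5806 bp in shTDP43 and 12578, 12063 and 11339 bp in shNC (log2 −1.06, limma, adjusted p = 0.0651). PLXNA4, a semaphorin receptor, had 4676, 6268 and 6641 bp in shTDP43 and 11012, 9770 and 9886 bp in shNC (log2 −0.61, limma, adjusted p = 0.0890). In the other direction EPAS1, a hypoxia-inducible transcription factor, had 13310, 14875 and 15410 bp of 15834 bp in shTDP43 and 9960, 11270 and 10061 bp in shNC (log2 0.67, limma, adjusted p = 0.189). Its shTDP43 libraries were all above its shNC libraries, the shallow one included. PRKAR1B, a regulatory subunit of protein kinase A, had 10395, 13017 and 14018 bp in shTDP43 and 10875, 10544 and 9157 bp in shNC, which overlap. The NOTCH1, KRT80 and PLXNA4 domains drew their width from shNC peaks, so there too the rule used the values compared.

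Every shTDP43 library was below every shNC library in unscaled coverage in 396 domains (13.6%), where 12.8% of all tested regions were. Every one was above in 21 (0.72%), where 1.34% were. Without shTDP43 replicate 1, 397 domains (13.6%, against 13.4% of regions) were below and 298 (10.2%, against 9.57%) above. These shares lay close to those of all regions, except that fewer domains than regions were above with replicate 1 included.

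**Figure D4:**
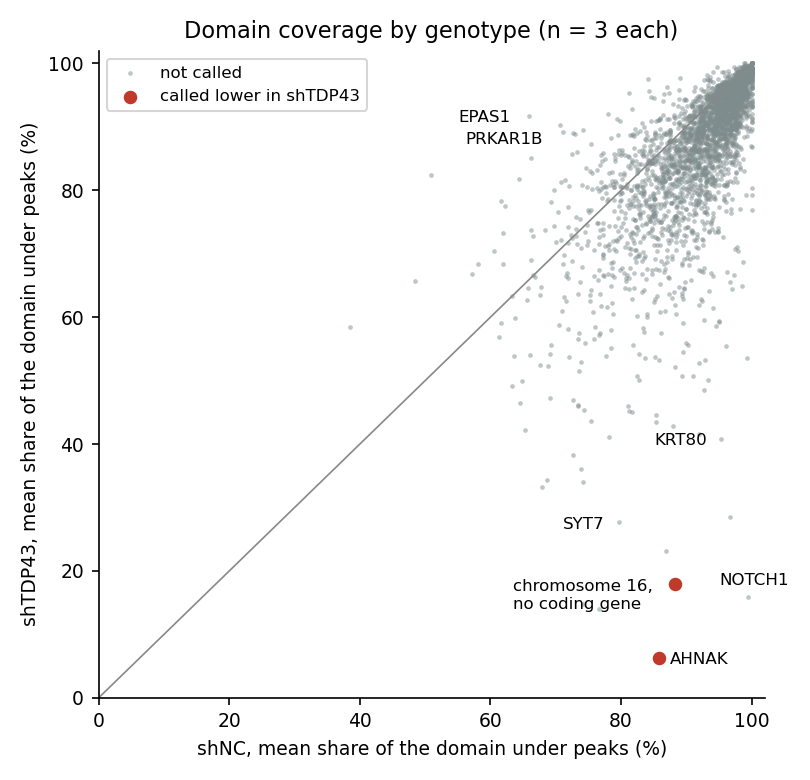
Mean share of each of 2918 domains under peaks, in percent, in 3 shTDP43 libraries (y axis) against 3 shNC libraries (x axis), with the diagonal of equal shares. Most domains lie above 80% in both genotypes, the 2 red points passed the test, and the named points include domains that did not.

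None of the domains holding a member of any gene list passed the test. Only 2 of all 2918 domains (0.0685%) did, so this says little about the lists. The 26 domains that held genes with TDP-43 cryptic exons had a median scaled log2 difference of 0.15, against 0.14 over all domains. In 7 of the 26 every shTDP43 library was below every shNC library. That is a larger share than the 13.6% over all domains (396 of 2918), and the difference in shares was not tested. The 7 include both domains of SYT7 and both of CAMK2B, so they are not independent members. Of the 7, those at STMN2, SYT7 and RAP1GAP drew their width largely from shNC peaks. For these the rule that chose the domains used the values compared. STMN2, a neuronal microtubule regulator whose transcript is known to be cut short when TDP-43 is lost, held 2 domains. The one from 79650168 to 79661694 on chromosome 8 had 304, 2953 and 1882 bp in shTDP43, against 8877, 7050 and 9742 bp in shNC (log2 −2.51 ± 0.58 SE, limma, adjusted p = 0.290). The one from 79610964 to 79627105 had 8187, 12450 and 14523 bp in shTDP43, against 16142, 14020 and 16142 bp in shNC (limma, adjusted p = 0.624). The groups lay apart in the first and overlapped in the second. SYT7, a calcium sensor of vesicle release, also held 2. One had 3331, 2279 and 4189 bp in shTDP43, against 9753, 8139 and 10358 bp in shNC (limma, adjusted p = 0.201), and the other 4257, 9437 and 9795 bp in shTDP43, against 14114, 13399 and 13153 bp in shNC (limma, adjusted p = 0.353). The groups did not overlap in either. UNC13A, a synaptic vesicle priming protein, had 16345, 16521 and 16530 bp in shTDP43 and 16535, 16951 and 16345 bp in shNC, which overlap. The genes of this list named here were chosen after their values were seen. At the other extreme of the 26, a CELF5 domain had 4215, 9552 and 5765 bp in shTDP43 and 7164, 2187 and 3491 bp in shNC. These overlap (log2 0.87, limma, adjusted p = 0.59).

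Domains with adrenergic genes were mostly filled in both genotypes, so their covered length had little room to differ. The 10 domains with adrenergic genes had a median core share of 89.3%, and their median unscaled log2 difference was −0.01. Those of ribosomal protein genes had a median core share of 86.7% and an unscaled median of −0.05, against −0.06 over all domains. Domains in genes over 200 kb had a median core share of 63.3% and an unscaled median of −0.11.

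After RNase H most of the domain signal was gone, and domains were hit more often than narrower shared regions. The treated libraries covered 1.27 Mb of the domains (2.38%) in shTDP43 and 3.07 Mb (5.72%) in shNC, against the 42.7 to 49.99 Mb and 49.1 to 51.2 Mb of the untreated libraries of the same genotype. At least 1 bp was still covered in 796 domains (27.3%, Wilson interval 25.7 to 28.9) in shTDP43 and 1394 (47.8%, 46.0 to 49.6) in shNC. Of narrower shared regions, 4.88% (4.60 to 5.18) were hit in shTDP43 and 8.34% (7.97 to 8.72) in shNC. A wide region is easier to hit, but per length the domains were also more covered: 2.38% of domain length against 1.22% of narrower shared length in shTDP43, and 5.72% against 2.09% in shNC. Regions not shared by all 6 untreated libraries were covered over 2.01% of their length in shTDP43, close to the domains, and 2.74% in shNC. Each treated group is 1 library, so genotypes were not tested, and intervals cover counting error only. The shNC list was longer, with 15504 peaks against 8868 in shTDP43, and its 8868 strongest peaks hit 30.5% of domains.

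Wide domains, domains with several gene ends and domains with a large core were hit more often than the rest. Of the 39 domains of 50 kb or more, 84.6% were hit in shTDP43 and 92.3% in shNC, and of the 728 under 12 kb 13.3% in shTDP43 and 27.9% in shNC. With at least 3 gene ends 44.5% were hit in shTDP43 and 67.2% in shNC, and inside genes 15.0% in shTDP43 and 32.7% in shNC. The median width was 20684 bp with at least 3 gene ends and 12888.5 bp inside genes. In the 730 domains with the largest core share 45.3% were hit in shTDP43 and 70.3% in shNC, and in the 730 with the smallest 8.22% in shTDP43 and 21.9% in shNC. Those with the largest core share were also wider (median 17921 bp against 12464 bp). The treated lists overlapped: 687 domains were hit in both, which is 86.3% of those hit in shTDP43 and 49.3% of those hit in shNC.

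**Figure D5:**
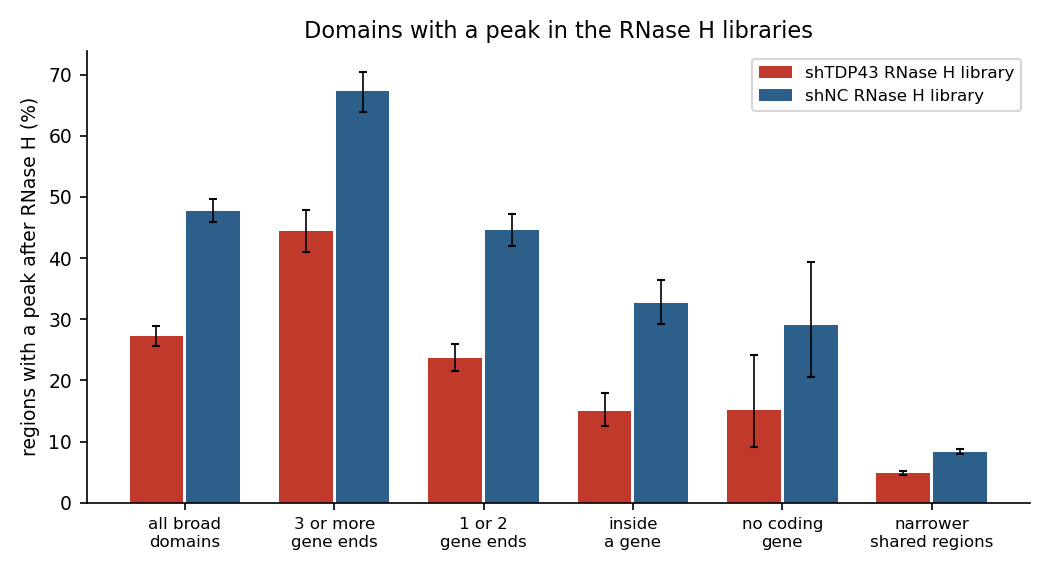
Share of regions with at least 1 bp of peak after RNase H (y axis, percent) in the treated shTDP43 library (left bar) and the treated shNC library (right bar), for all domains, for classes of domains by the coding gene ends they hold, and for narrower shared regions; lines are 95% Wilson intervals. Gene ends are the starts and ends of gene spans alike. Of the sets drawn, domains with 3 or more gene ends are highest in both libraries, at 44.5% and 67.2%.

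The domain with most coverage after treatment held CDT1, which licenses replication origins, APRT, an adenine salvage enzyme, and GALNS, a lysosomal enzyme. Of its 34627 bp, 20030 bp stayed under peaks in shTDP43 and 25133 bp in shNC. ADGRB1, an adhesion receptor of the brain, kept 18373 bp of 34138 bp in shTDP43 and 21262 bp in shNC. GRK6, PRR7 and DBN1 shared a domain that kept 18054 bp of 56129 bp in shTDP43 and 20864 bp in shNC. The unbroken PHOX2A domain kept 12523 bp of 24834 bp in shTDP43 and 16993 bp in shNC. TTYH3, a chloride channel family member, kept 11639 bp of 40209 bp in shTDP43 and 21435 bp in shNC. WDR25 and BEGAIN differed most among those named, at 4886 bp of 61600 bp in shTDP43 and 19328 bp in shNC. In contrast CACNA2D2, VAV2 and BAIAP2 with AATK, all among the 5 most fragmented domains, had 0 bp in both treated libraries. The rest of those 5 did keep peaks. ZMIZ1 kept 2897 bp in shTDP43 and 6637 bp in shNC, and CRB2 with DENND1A 287 bp in shTDP43 and 1057 bp in shNC. Of the 10 domains with adrenergic genes, 9 were hit in shTDP43 and 10 in shNC, and of the 40 with ribosomal protein genes 21 in shTDP43 and 24 in shNC. Over all domains the shares were 27.3% in shTDP43 and 47.8% in shNC. All the adrenergic domains but those of SOX11 and ISL1 were over 20 kb wide. Of all domains of 20 to 50 kb, 46.9% were hit in shTDP43 and 72.4% in shNC. The part of width in these counts was not tested.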

How the data were processed

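DRIP-seq was run on SH-SY5Y cells, and each of the 8 libraries was given as its own deposited list of MACS2 narrow peaks. Tools named in the submitters' processing notes are MACS2 2.2.6, Bowtie2 2.4.4 and SAMtools, with the hg38 build and no settings. The control behind the peaks is not given among the sources used here. The deposited lists give per peak a score, a fold enrichment (a ratio over local background), and −log10 p and −log10 q values, each the authors' own, used within a list for depth and for stricter thresholds. They hold no read counts. Depth was read as the lowest background pileup that the deposited fold and −log10 p give for a whole-number pileup, within 0.001 on the −log10 p scale.

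Covered length is the number of bases of a region under peaks. Each library was scaled so that its total equalled the median one, 100 bp was added, and log2 values went into limma 3.58.1 under R 4.3.3 (eBayes with trend) over the 31639 regions with a mean of at least 500 bp, with Benjamini-Hochberg adjustment and calls under 0.05. Covered length cannot exceed a domain's width, so unscaled fits stand beside the scaled ones. The test was checked on simulated data. It recovered 21% of changes of log2 1 and 89% of changes of log2 2, with 3 false calls among 113. The simulation tested 28087 regions with normal noise of the same spread in each. It held no shallow library and no limit from domain width, so these shares need not hold for the real domains. A domain that did not pass may therefore still differ between the genotypes. Values of 1 number per library were compared with 2-sided exact permutation tests. Interval sums were checked in 500 windows, of which 0 differed.

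Gene spans and promoter windows came from RefSeq (GRCh38.p14). Of 19974 coding genes, 15812 had a listed start, the most upstream being used, and spans carry no strand, exon or UTR annotation here. All list symbols matched except 1 of 13 neuroblastoma genes and 1 of 29 R-loop factors. Of the neuroblastoma genes, 4 of 12 were held (LMO1, ALK, TERT and MYC).

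The members, lists and tests were chosen with earlier results of these data known, and support nothing independently. Named domains were the 10 widest, those called, the most and least fragmented, those most covered after RNase H, those at the width limit, those with most starts, and up to 4 members per list, and any others are said to be chosen after seeing values. Alternatives covered scaling, pseudocount, filter, peak threshold, number of peaks, replicate block, domain width and leaving out each library. The 1 input library that the labels name was not used here. A few genes and the domains that turn on them are not reported here.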

Additional observations from a re-analysis of the deposited data

How the results depend on the processing

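The 3 measures per library kept their direction under every alternative run. None passed a test, but none could, since exact tests on so few libraries cannot go below p = 0.1. Leaving out 1 library moved the differences over −3.86 to −0.24 Mb, 0.55 to 4.80 percentage points and 0.057 to 0.890 peaks, in each case smallest without shTDP43 replicate 1. The number of domains was 2918, and moved by more than 1.5 times only for a width of at least 20 kb, which leaves 854. The number called lower was 2 and became 1 without scaling, 0 with scaling inside the domains, 4 with a pseudocount of 500 bp, 11 without a filter, 0 with peaks at −log10 q of at least 5 or at least 10, and 1 with equal peak numbers. Leaving out 1 library gave 0 to 6 domains: 0 without any 1 of the shNC libraries and 6, 3 and 1 without shTDP43 replicates 1, 2 and 3. The number called higher was 0 and became 2 without a filter. AHNAK lost its call in 8 of 16 alternatives and the chromosome 16 domain in 7, and neither turned direction. After RNase H the share of domains hit fell to 5.11% in shTDP43 and 15.1% in shNC for an overlap of at least 10%, and to 9.39% in shTDP43 and 24.0% in shNC for peaks at −log10 q of at least 5. With the 8868 strongest peaks, a setting chosen after seeing the data, it was 30.5% in shNC. The causes of these moves were not tested. Replicate numbers do not pair the libraries (deviations of same-numbered libraries correlated at r = −0.14, −0.03 and −0.09), and with the number as a replicate block 2 domains were called lower and 0 higher, with differences of −2.54 Mb, 3.35 percentage points and 0.574 peaks (exact p = 0.75 each).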
